A study of Homo sapiens with 4 samples.

Results

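The genes described here are 39 genes of the lysosome and of autophagy, which were chosen by their names. All 39 were found among the 58735 genes of the deposited files. They comprise 4 proteins of the lysosomal membrane, 8 proteases, 11 enzymes that remove sugars or sulfate, 3 lipid hydrolases together with the saposin precursor, 6 parts of the proton pump, the transcription factor TFEB and 5 proteins of autophagy. Brusatol (Bru) is a plant compound of the quassinoid class that the study tested against glioblastoma (GBM) cells. RNA was sequenced from 2 established human GBM cell lines, U251 and U87, in a Control group and after 48 h of Bru at the IC50 of the study, as 4 libraries, 1 for each condition of each line. The labels give no further agent for the Control group, and each line is a single cultured line. The comparisons ask how Bru changed the RNA of these genes in each line and whether the lines differed.

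The lysosome is the compartment in which cells digest proteins, sugars, lipids and worn organelles, and its acid interior is made by a proton pump, the V-ATPase, that uses ATP. Autophagy delivers cytoplasm to it: a membrane grows around the cargo, receptors such as p62 tie the cargo to proteins of the ATG8 family on that membrane, and the closed vesicle fuses with the lysosome. Many lysosomal genes carry the CLEAR element in their promoters, a palindrome that is read by TFEB and its relatives, and the kinase mTORC1 on the lysosomal surface keeps TFEB out of the nucleus while nutrients are plentiful. Cathepsins are known to be abundant in GBM cells, where some of them are also secreted.

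RefSeq promoter windows (GRCh38.p14, from 250 bases before to 50 bases after a start) were found for 27 of the 39 genes. The core of the CLEAR element, TCACGTGA, stood in 5 of their 34 windows, which is 14.7%, against 0.980% of all 35116 windows. The shorter E box CACGTG, which lies inside the CLEAR core, stood in 8 of the 34 windows (23.5%) against 7.26% of all windows. The core of the antioxidant response element that NRF2 reads, TGACNNNGC on either strand, stood in 12 of the 34 windows (35.3%) against 13.3%. They were windows of ATP6V0C, ATP6V0D1, CTSA, CTSD, CTSL, CTSZ, GAA, GLA, LAMP1, LIPA, MAP1LC3B and PPT1, and none was of SQSTM1. These matches describe letters and not bound sites. No window was found for ASAH1, ATP6V1A, ATP6V1B2, ATP6V1H, CTSB, CTSK, HEXA, LAMP2, MANBA, NAGLU, PSAP and SGSH. The 100 bases from 90 before to 10 after the start are printed for the 5 genes with a CLEAR core, which is in capitals, and for SQSTM1 and ATP6AP1, which hold none and moved the most in U251 and in U87. All are written 5′ to 3′ on the strand of the gene, and they were chosen after the matches and values had been seen.
LAMP1, chr13:113297149-113297248, plus strand: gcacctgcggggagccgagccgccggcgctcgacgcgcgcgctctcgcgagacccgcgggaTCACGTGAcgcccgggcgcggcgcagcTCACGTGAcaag
MCOLN1, chr19:7522534-7522633, plus strand: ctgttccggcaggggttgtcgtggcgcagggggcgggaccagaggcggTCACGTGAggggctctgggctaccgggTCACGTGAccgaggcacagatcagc
CTSA, chr20:45891245-45891344, plus strand: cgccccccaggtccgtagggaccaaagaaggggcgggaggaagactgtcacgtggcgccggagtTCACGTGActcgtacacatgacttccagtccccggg
GAA, chr17:80101491-80101590, plus strand: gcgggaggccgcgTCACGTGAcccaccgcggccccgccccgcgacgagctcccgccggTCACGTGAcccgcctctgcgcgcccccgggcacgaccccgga
ATP6V0D1, chr16:67481148-67481247, minus strand: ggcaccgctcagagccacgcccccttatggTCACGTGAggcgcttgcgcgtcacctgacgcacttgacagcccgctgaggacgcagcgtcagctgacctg
SQSTM1, chr5:179806303-179806402, plus strand: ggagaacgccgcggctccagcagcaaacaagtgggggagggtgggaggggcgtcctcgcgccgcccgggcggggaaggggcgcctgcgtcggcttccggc
ATP6AP1, chrX:154428587-154428686, plus strand: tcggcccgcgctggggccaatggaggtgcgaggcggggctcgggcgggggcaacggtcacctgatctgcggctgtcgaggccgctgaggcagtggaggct

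Levels are given as FPKM, that is fragments scaled to gene length and library size, as the authors deposited them. Recovered reads on genes amounted to 17083896 to 21453561 per library. The library size behind the FPKM was 17406238 to 20974002, so that 3 reads of a gene of 1 kilobase correspond to an FPKM of 0.143 to 0.172. A ratio is the log2 of (FPKM + 0.1) in Bru over (FPKM + 0.1) in Control. Genes were read where their FPKM averaged 1 or more across all 4 libraries, which left 12949 genes, among them 38 of the 39 but not TFEB. A gene is said to have risen or fallen where its ratio passed 1.5-fold, and the 2-fold mark of the study is given beside it. Each line has 1 library per condition, so that a difference within a line has no replicate check and no p-value. Over both lines Bru was tested against Control with limma, in which the line is a block and each line counts as 1 replicate. Each ratio has a 95% interval, an exact Clopper-Pearson one made from the part of the gene's reads that came from Bru. The interval leaves out the added 0.1, which draws the ratio of a gene with a low FPKM towards 0. The interval covers counting error only, and it cannot tell a change of the cells from a difference between cultures. More reads make it narrower, and the 38 genes had a higher median FPKM than all genes tested. Shares of intervals away from no change are therefore not like for like between the 38 genes and all genes.

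The GBM label was read against marker genes. VIM (606 to 701) and CD44 (94.5 to 125) had a high FPKM in all 4 libraries. SOX2, a glial and stem cell factor, reached 129 and 91.2 in U251 Control and U251 Bru but at most 0.0457 in U87, and GFAP did not exceed 2.42 in any library. NES, which codes for nestin, had 125 in U251 Control and 50.6 in U251 Bru but 1.46 and 0.569 in U87. EGFR had 12.3 to 15.7 in all libraries, while S100B was at or under 0.296 and OLIG2 at or under 1.05, so that only VIM, CD44 and EGFR of the 8 glial or glioma markers exceeded 5 in every library. Of 5 immune markers AIF1 and CD3E were at 0 and the highest was CSF1R at 1.32, and 3 endothelial markers stayed at or under 0.499. Of 3 neuronal markers, SNAP25 had 1.89 and 0.948 in U251 and 6.28 and 5.65 in U87, SYT1 had 6.02 and 4.18 in U251 and 2.22 and 1.73 in U87, in Control and Bru in turn, and RBFOX3 stayed at or under 0.0386. Their part in the results was not tested. The mitochondrially encoded share of reads was 3.01% in Control and 2.43% in Bru for U251, and 3.93% in Control and 4.06% in Bru for U87, and its part in the results was not tested.

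The 39 genes took up 0.764% of the reads in Control and 0.916% in Bru for U251, and 1.06% in Control and 1.02% in Bru for U87. Without SQSTM1 the share in U251 was lower in Bru, at 0.676% in Control and 0.513% in Bru, beside 0.908% and 0.799% in U87. The median of their FPKM, averaged over the libraries, was 17.1, against 6.63 for all genes tested. PSAP, the precursor of the saposins that help enzymes to reach membrane lipids, was by far the most abundant, with an FPKM of 658 in Control and 431 in Bru for U251, and 765 in Control and 614 in Bru for U87. SQSTM1 and CTSD came next, and the lowest were TFEB, MANBA and HEXA.

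**Figure D1:**
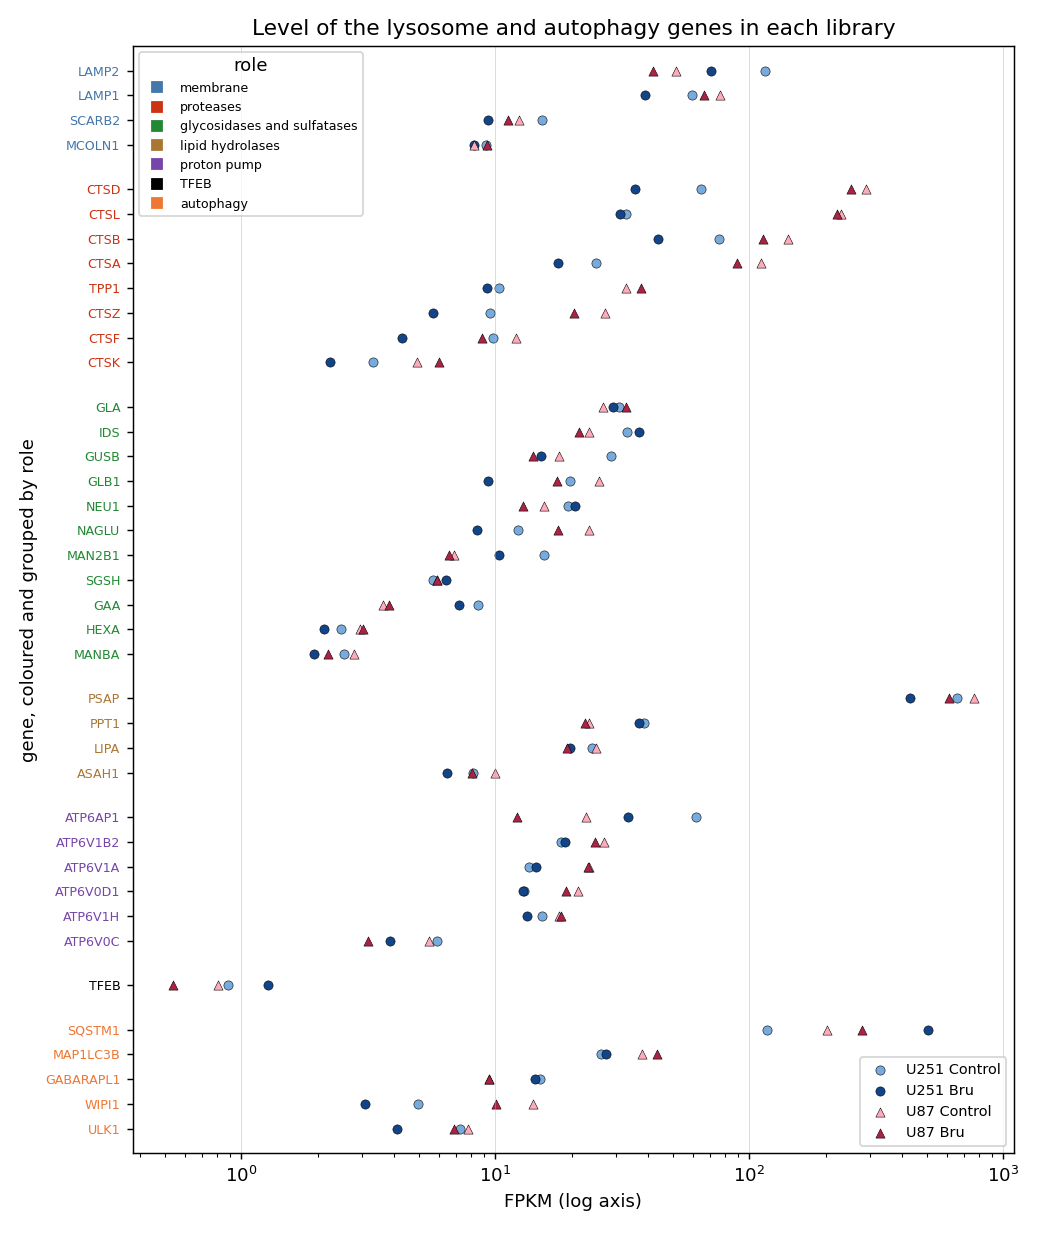
FPKM of the 39 genes in the 4 libraries on a log axis, grouped and coloured by role, with circles for U251, triangles for U87, and light and dark symbols for Control and Bru. SQSTM1 moves from 118 to 507 in U251, whereas most dark circles of the membrane proteins and proteases lie to the left of the light ones and the U87 proteases lie to the right of those of U251.

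In U251 most of these genes had less RNA after Bru, and SQSTM1 had several times more. Past the 1.5-fold mark, 15 of the 38 genes fell (39.5%), where 15.6% of all genes tested fell. These were LAMP1, LAMP2, SCARB2, CTSB, CTSD, CTSF, CTSZ, GLB1, GUSB, MAN2B1, PSAP, ATP6AP1, ATP6V0C, WIPI1 and ULK1. SQSTM1 alone rose, where 11.3% of all genes rose. At the 2-fold mark SQSTM1 was higher and CTSF and GLB1 were lower, beside 3.36% and 5.44% of all genes. The counting interval lay below no change for 27 of the 38 genes and above it for 3, where the shares over all genes were 35.9% and 30.9%. The 38 genes were more abundant, so these shares are not like for like. The median ratio of the 38 genes was -0.36, against -0.03 over all genes tested. In a culture, fewer cells that express a gene and less RNA of it per cell cannot be told apart.

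In U87 most of these RNAs moved less. Only ATP6AP1 and ATP6V0C fell past the 1.5-fold mark, which is 2 of 38 (5.26%) where 4.49% of all genes fell, and the share is near that background. None of the 38 rose, where 4.56% of all genes rose, and none passed the 2-fold mark in either direction, beside 1.92% of all genes higher and 1.41% lower. The counting interval lay below no change for 24 genes and above it for 4, against 28.0% and 15.7% of all genes, which again are not like for like. The median ratio was -0.17, against -0.04 over all genes tested. It was -0.02 when the libraries were scaled to the 75th percentile of the genes above 0, a scaling that moved the median of all U87 ratios from -0.04 to 0.10 and the genes past the 1.5-fold mark to 6.91% higher and 2.80% lower. Under it the medians of the glycosidases and sulfatases (0.02), the proton pump (0.01) and the autophagy genes (0.14) in U87 were positive, where as deposited they were -0.13, -0.14 and -0.01.

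**Figure D2:**
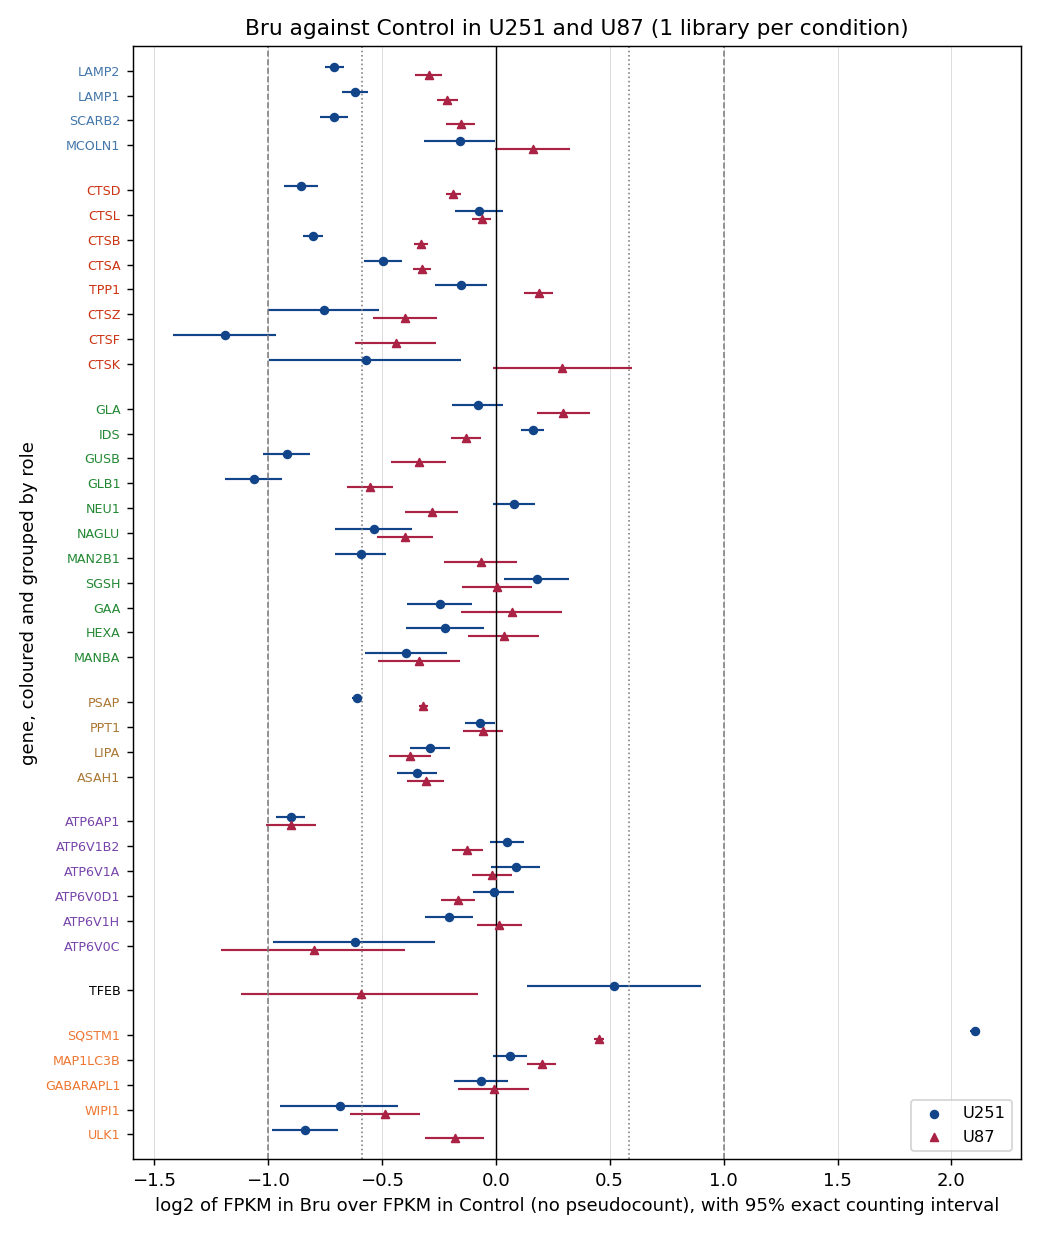
Log2 ratio of FPKM in Bru to FPKM in Control, without the added 0.1, for each of the 39 genes in U251 and U87, with bars for the 95% exact counting interval. The U251 points of most membrane proteins and proteases lie further left than the U87 points, SQSTM1 stands alone on the right at 2.10 in U251 and 0.45 in U87, and ATP6AP1 has the same place in both lines near -0.90.

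LAMP1, LAMP2 and SCARB2 of the lysosomal membrane fell in U251. LAMP1 and LAMP2 line the membrane and protect it from the enzymes inside, and LAMP2 also serves in the import of proteins by chaperones. LAMP1 had an FPKM of 59.6 in Control and 38.8 in Bru for U251, and 76.7 in Control and 66.3 in Bru for U87. LAMP2 had an FPKM of 115 in Control and 70.5 in Bru for U251, and 51.3 in Control and 41.8 in Bru for U87. SCARB2, which carries glucocerebrosidase to the lysosome, had an FPKM of 15.3 in Control and 9.36 in Bru for U251, and 12.4 in Control and 11.2 in Bru for U87. The ratios in U251 were -0.62 for LAMP1 (interval -0.67 to -0.56), -0.71 for LAMP2 (-0.75 to -0.67) and -0.70 for SCARB2 (-0.77 to -0.65), and all 3 fell. In U87 they were -0.21, -0.29 and -0.15, short of the mark, with intervals below no change. MCOLN1, the calcium channel TRPML1 of the lysosome, had ratios of -0.16 in U251 and 0.16 in U87. The FPKM of the 4 genes added up to 199 in U251 Control and 127 in U251 Bru, and to 149 and 129 in U87.

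Of the 8 proteases, 4 fell in U251, where 15.6% of all genes did, and the 8 together had a higher summed FPKM in U87 than in U251. CTSD, an aspartic protease and on average the most abundant of them, had an FPKM of 64.4 in Control and 35.6 in Bru for U251, and 287 in Control and 252 in Bru for U87, and its ratio was -0.85 in U251 (interval -0.93 to -0.78) and -0.19 in U87 (-0.22 to -0.15). CTSB, a cysteine protease linked to invasion in many tumours, had an FPKM of 76.2 in Control and 43.7 in Bru for U251, and 143 in Control and 114 in Bru for U87, with ratios of -0.80 (-0.85 to -0.76) and -0.33 (-0.36 to -0.30). Both fell in U251 and stayed short of the mark in U87. CTSF, another cysteine protease, had an FPKM of 9.76 in Control and 4.29 in Bru for U251, and 12.0 in Control and 8.89 in Bru for U87, on 593, 230, 630 and 448 reads. Its U251 ratio of -1.17 (-1.41 to -0.97) was the most negative of the 38 genes, and 469 of the 12949 genes tested had one at or below it. CTSZ, a carboxypeptidase, had an FPKM of 9.54 in Control and 5.67 in Bru for U251, and 26.9 in Control and 20.5 in Bru for U87, and it fell in U251 with a ratio of -0.74 (-0.998 to -0.51), beside -0.39 in U87.

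Not every protease followed. CTSL, which is as well known a cysteine protease as CTSB, had an FPKM of 32.7 in Control and 31.1 in Bru for U251, and 231 in Control and 221 in Bru for U87, and its ratios of -0.07 and -0.06 were the smallest of the group in both lines. CTSA, a carboxypeptidase that also protects GLB1 and NEU1, had ratios of -0.49 and -0.32. CTSK, a collagen-degrading cathepsin with only 78 to 198 reads, had a ratio of -0.55 in U251 (interval -0.99 to -0.15) and 0.29 in U87 (-0.01 to 0.60). TPP1, a tripeptidyl peptidase, had an FPKM of 10.3 in Control and 9.28 in Bru for U251, and 32.8 in Control and 37.3 in Bru for U87. It was lower in U251 with a ratio of -0.15 (-0.27 to -0.04) and higher in U87 with 0.19 (0.13 to 0.25), neither past the mark. The median of the 8 proteases was -0.65 in U251 and -0.25 in U87, and their summed FPKM went from 231 to 149.5 in U251 and from 848 to 749 in U87.

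Among the 11 enzymes that remove sugars or sulfate, 3 fell in U251 (27.3%, where 15.6% of all genes did) and none in U87 (where 4.49% did). GLB1, the beta-galactosidase used as a stain for senescent cells, had an FPKM of 19.6 in Control and 9.40 in Bru for U251, and 25.6 in Control and 17.5 in Bru for U87. Its ratio was -1.05 in U251 (interval -1.19 to -0.94) and -0.55 in U87 (-0.65 to -0.45), the most negative of the group in each line. GUSB, the beta-glucuronidase that is often used as a reference gene in expression assays, had an FPKM of 28.5 in Control and 15.1 in Bru for U251, and 17.8 in Control and 14.0 in Bru for U87, with a ratio of -0.91 in U251 (-1.02 to -0.81) and -0.34 in U87. MAN2B1, the alpha-mannosidase, had an FPKM of 15.6 in Control and 10.3 in Bru for U251, and 6.90 in Control and 6.60 in Bru for U87, and its ratio was -0.59 in U251 (-0.70 to -0.48), barely past the mark, and -0.06 in U87. The 3 enzymes remove galactose, glucuronic acid and mannose from the ends of sugar chains.

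The other 8 stayed short of the mark in both lines. NAGLU, an enzyme of heparan sulfate breakdown, had ratios of -0.53 in U251 and -0.39 in U87. MANBA, the beta-mannosidase, had an FPKM of 2.54 in Control and 1.93 in Bru for U251, and 2.78 in Control and 2.20 in Bru for U87, with ratios of -0.38 and -0.32. HEXA, a subunit of the beta-hexosaminidase that is missing in Tay-Sachs disease, had an FPKM of 2.47 in Control and 2.12 in Bru for U251, and 2.94 in Control and 3.02 in Bru for U87, with ratios of -0.21 and 0.03. MANBA and HEXA are the least abundant members that passed the filter. The glycogen-cleaving GAA had ratios of -0.24 and 0.07, and the alpha-galactosidase GLA had -0.08 in U251 and 0.30 in U87 (interval 0.18 to 0.42). The sialidase NEU1 had 0.08 and -0.28. The 2 enzymes that remove sulfate had positive ratios in U251. IDS, the iduronate sulfatase, had an FPKM of 32.9 in Control and 36.8 in Bru for U251, and 23.5 in Control and 21.4 in Bru for U87, with ratios of 0.16 (0.11 to 0.21) in U251 and -0.13 (-0.20 to -0.07) in U87, and SGSH, the sulfamidase, had 0.18 and 0.00. The median of the 11 enzymes was -0.24 in U251 and -0.13 in U87, where it was 0.02 with scaling to the 75th percentile.

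The lipid hydrolases and PSAP had negative ratios in both lines, except that PPT1 had 0.09 in U87 with scaling to the 75th percentile. PSAP fell in U251 with a ratio of -0.61 (interval -0.63 to -0.59) and had -0.32 (-0.34 to -0.30) in U87, on 25889 to 44776 reads. LIPA, the acid lipase that frees cholesterol from its esters, had ratios of -0.29 and -0.37. ASAH1, the acid ceramidase, had -0.34 and -0.30, and PPT1, which removes palmitate from proteins, had -0.07 and -0.06. For LIPA, ASAH1 and PPT1 the counting interval of the difference between the lines included 0. Over all 23 hydrolases and PSAP, 8 fell in U251 (34.8%, beside 15.6% of all genes) and none in U87 (beside 4.49%). The medians were -0.38 and -0.28. In U87 the count is near the background for so few genes.

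In the proton pump, an accessory subunit fell in both lines while no subunit of the ATP-cleaving part passed the mark. ATP6AP1, at chrX:154428632-154436516, codes for the accessory subunit Ac45, which guides the assembly of the membrane part of the pump. It had an FPKM of 61.9 in Control and 33.2 in Bru for U251, and 22.7 in Control and 12.2 in Bru for U87. It fell 1.86-fold in each line, with a ratio of -0.90 in U251 (interval -0.96 to -0.84) and -0.89 in U87 (-1.01 to -0.79). The counting interval of the difference between the lines ran from -0.13 to 0.13. In U87 this was the most negative ratio of the 38 genes, and 240 of the 12949 genes tested were at or below it. ATP6V0C, the subunit that forms the proton-carrying ring, had an FPKM of 5.92 in Control and 3.85 in Bru for U251, and 5.47 in Control and 3.14 in Bru for U87, on 186, 107, 148 and 82 reads, and it fell in both lines with ratios of -0.61 (-0.98 to -0.27) and -0.78 (-1.21 to -0.40). Of its exon bases in GENCODE, 72.1% also belong to readthrough genes listed at 0 reads in all 4 libraries, so its level is uncertain.

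The other pump subunits among the 39 genes did not pass the mark in either line. ATP6V0D1, of the membrane part, had ratios of -0.01 and -0.17. The catalytic subunit ATP6V1A had 0.09 and -0.02, ATP6V1B2 beside it had 0.05 and -0.12, and the regulatory subunit ATP6V1H had -0.20 and 0.02. Of 12 further pump subunits, 2 fell in U251 and none in U87, where 4.49% of all genes fell. The 16.7% in U251 is near the 15.6% of all genes that fell there. The fallen ones were TCIRG1, a form of the large membrane subunit, with a ratio of -0.65, and ATP6AP2, the other accessory subunit, with -0.64. ATP6V1C1 and ATP6V1F of the ATP-cleaving sector had 0.52 each in U251, short of the mark. The median over the 8 subunits of that sector was 0.22 (U251) and 0.03 (U87), and none of them passed the mark in either line.

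SQSTM1 was the only one of the 38 genes that rose, and it did so in U251. With scaling to the 75th percentile its ratio in U87 was 0.61 and passed the mark too. It codes for p62, the receptor that carries ubiquitin-tagged cargo into autophagosomes and that also binds KEAP1, the inhibitor of NRF2. The gene (ENSG00000161011) lies on the plus strand at chr5:179806398-179838078. Its FPKM was 118 in Control and 507 in Bru for U251, and 203 in Control and 278 in Bru for U87, on 18938, 71882, 28097 and 37051 reads. The ratio was 2.10 in U251 (interval 2.08 to 2.13), a 4.30-fold rise, and 0.45 in U87 (0.43 to 0.48), or 1.37-fold. The difference between the lines was 1.65 (counting interval 1.62 to 1.68). Of the 12949 genes tested, 64 had a ratio at or above that of SQSTM1 in U251 and 855 in U87. By FPKM it went from place 295 to place 50 among all genes in U251 and from 145 to 93 in U87. Its FPKM relative to that of PSAP went from 0.179 to 1.17 in U251 and from 0.266 to 0.453 in U87.

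MRNIP on the opposite strand shares 20.7% of the exon bases of SQSTM1. It had 1400, 1672, 675 and 968 reads in the same order of libraries, and since the sources used here do not state whether reads were counted by strand, reads of the pair may not be told apart. In each library they were far fewer than those of SQSTM1. MGAT4B, on the opposite strand as well, shares 1.37% of the exon bases.

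Other members overlap listed genes too, and their levels carry the same uncertainty. CTSD shares 52.7% of its exon bases with neighbours that had at most 297 reads. CTSA shares 28.5%, in part with PLTP, which had 14 and 4 reads in U251 but 2980 and 2898 in U87. PPT1 shares 23.4% with CAP1 on the opposite strand, which had 4156 to 5434 reads per library, more than PPT1 itself. WIPI1 shares 28.1%, chiefly with ARSG (42 to 73 reads), MAN2B1 shares 21.2% and IDS 17.4%. Stretches of 50 bases that recur elsewhere in the transcripts made up at most 4.82% of a member.

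The autophagy proteins beside SQSTM1 gave a mixed picture in U251. ULK1, the kinase that starts autophagy, had an FPKM of 7.29 in Control and 4.09 in Bru for U251, and 7.80 in Control and 6.89 in Bru for U87, and it fell in U251 with a ratio of -0.82 (interval -0.98 to -0.69), beside -0.18 (-0.31 to -0.05) in U87. WIPI1, which binds the lipid that marks the growing membrane, had an FPKM of 4.95 in Control and 3.08 in Bru for U251, and 14.1 in Control and 10.05 in Bru for U87, with ratios of -0.67 (-0.95 to -0.43) and -0.48 (-0.64 to -0.33), and it fell in U251. MAP1LC3B, the LC3 protein that is read as a marker of autophagosomes, had an FPKM of 26.2 in Control and 27.3 in Bru for U251, and 37.7 in Control and 43.4 in Bru for U87, with ratios of 0.06 and 0.20 (0.14 to 0.27). GABARAPL1, of the same ATG8 family, had -0.06 and -0.01. Neither of these ATG8 RNAs passed the mark in either line, while that of the cargo receptor rose in U251. Of the stretches of 50 bases in MAP1LC3B, 4.82% recur in MAP1LC3B2, which had 44 to 87 reads per library.

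TFEB, the transcription factor of the CLEAR element, was present at a trace. Its FPKM was 0.886 in Control and 1.27 in Bru for U251, and 0.813 in Control and 0.539 in Bru for U87, on 105, 133, 83 and 53 reads, which is above the floor but under the filter. Its ratio was 0.47 in U251 (interval 0.14 to 0.90) and -0.51 in U87 (-1.12 to -0.08), with a difference between the lines of 0.99 (0.46 to 1.77). Without the added 0.1, which the intervals leave out, the ratios were 0.52 in U251 and -0.59 in U87. The 5 genes with a CLEAR core near their start did not move as 1 group. In U251 the ratios were -0.62 for LAMP1, -0.49 for CTSA, -0.24 for GAA, -0.16 for MCOLN1 and -0.01 for ATP6V0D1, and only LAMP1 fell. In U87 they were -0.21, -0.32, 0.07, 0.16 and -0.17 in the same order.

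The response was compared between the lines gene by gene. The ratio was negative in both lines for 24 of the 38 genes (63.2%), where 37.5% of all genes tested had this, and positive in both for 3. It was more negative in U251 than in U87 for 29 of the 38 genes (76.3%), against 49.1% of all genes. All 4 membrane proteins and all 8 proteases were among the 29. Across the 38 genes, Pearson's r between the lines was 0.65 and Spearman's rho was 0.67. Without SQSTM1 they were 0.60 and 0.64 (n = 37), and over all 12949 genes 0.23 and 0.40. The 38 genes had a higher median FPKM than all genes tested, so counting error weighs less on their correlation. Genes are not independent replicates, and the pairs of libraries share no sample. Of the members with a large difference, CTSK had -0.84 (counting interval -1.39 to -0.34), CTSF -0.74 (-1.04 to -0.46) and CTSD -0.67 (-0.75 to -0.59).

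**Figure D3:**
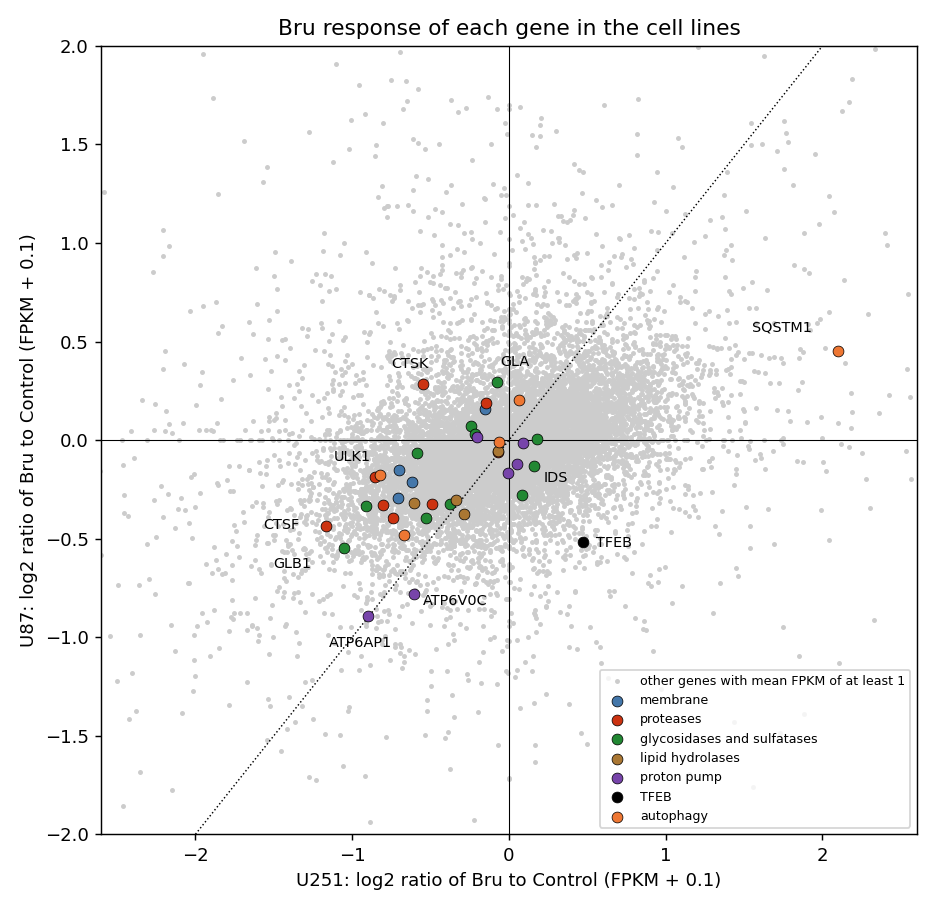
Log2 ratio of Bru to Control in U251 (x axis) against that in U87 (y axis), computed on FPKM + 0.1, for the 39 genes coloured by role over all other genes tested in grey, of which 180 lie outside the axes. Most coloured points lie in the lower left and above the diagonal, ATP6AP1 lies on it, and SQSTM1 lies far to the right at 2.10 and 0.45.

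Bru was then compared with Control over both lines at once, with n = 2 lines and 1 residual degree of freedom. Of the 38 genes none passed an adjusted p of 0.05 in limma, and none of the 12949 genes tested did, the smallest adjusted p being 0.0567. At an unadjusted p under 0.05, 12 of the 38 were lower (31.6%) and SQSTM1 was higher, where 8.85% of all genes were lower and 5.32% higher. The count of lower genes depended on the setting. It was 6 (15.8%) with scaling to the 75th percentile, where 4.12% of all genes were lower. Without the line as block it was 0, where 0.425% of all genes were lower. It was 13 with 1 in place of 0.1 added to the FPKM, and 13 with the filter at 5 FPKM, beside 8.77% and 12.7% of all genes. ATP6AP1 had a mean log2 ratio of -0.89 ± 0.16 (SE, adjusted p = 0.129 in limma), GLB1 -0.80 ± 0.19 (adjusted p = 0.206 in limma) and SQSTM1 1.28 ± 0.37 (adjusted p = 0.259 in limma), each with the same direction in 2 of 2 lines. The spread in this fit combines the disagreement between the lines with a variance drawn from all genes tested, which counts for 5.89 degrees of freedom. The SE of a gene is therefore not the disagreement of its own 2 ratios. ATP6AP1 had an SE of 0.16 although its ratios were -0.90 in U251 and -0.89 in U87.

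Before treatment the lines already differed in these genes. In U87 Control, 11 of the 38 genes were higher than in U251 Control past the 1.5-fold mark and 7 were lower, where 25.0% of all genes were higher and 26.8% lower. The counting interval lay above no change for 21 genes and below it for 11, beside 40.1% and 40.9% of all genes. At the 2-fold mark 6 were higher and 4 lower, beside 14.5% and 16.0% of all genes. The counts over the 38 genes were not far from the background, whereas all 8 proteases among them were higher in U87, 6 past 1.5-fold and 5 past 2-fold. CTSL had a log2 ratio of U87 to U251 of 2.81, CTSA 2.16, CTSD 2.15, TPP1 1.66, CTSZ 1.49 and CTSB 0.90. CTSK had 0.56 and CTSF 0.30. The summed FPKM of the 8 proteases was 231 in U251 and 848 in U87. This order belongs to the 8 genes and not to lysosomal proteases at large. Of 6 further ones, CTSH had -3.73, CTSV -1.52, CTSC -1.14, LGMN -0.86 and CTSO -0.26, all lower in U87, and CTSS alone was higher, on 4 reads in U251 and 877 in U87. The summed FPKM of the 6 was 33.3 in U251 Control and 26.8 in U87 Control, and CTSV is under the filter.

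Other members were lower in U87 Control. ATP6AP1 had a log2 ratio of U87 to U251 of -1.44, GAA -1.22, LAMP2 -1.17 and MAN2B1 -1.16, all past 2-fold. PPT1 (-0.72), GUSB (-0.68) and GABARAPL1 (-0.66) passed 1.5-fold. Besides the proteases, WIPI1 (1.49), NAGLU (0.92), SQSTM1 (0.78), ATP6V1A (0.78) and ATP6V0D1 (0.71) were higher. LAMP1 and LAMP2 thus had opposite orders in the lines, LAMP2 being the more abundant in U251 and LAMP1 in U87. This comparison uses the same Control libraries as the comparisons with Bru.

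**Figure D4:**
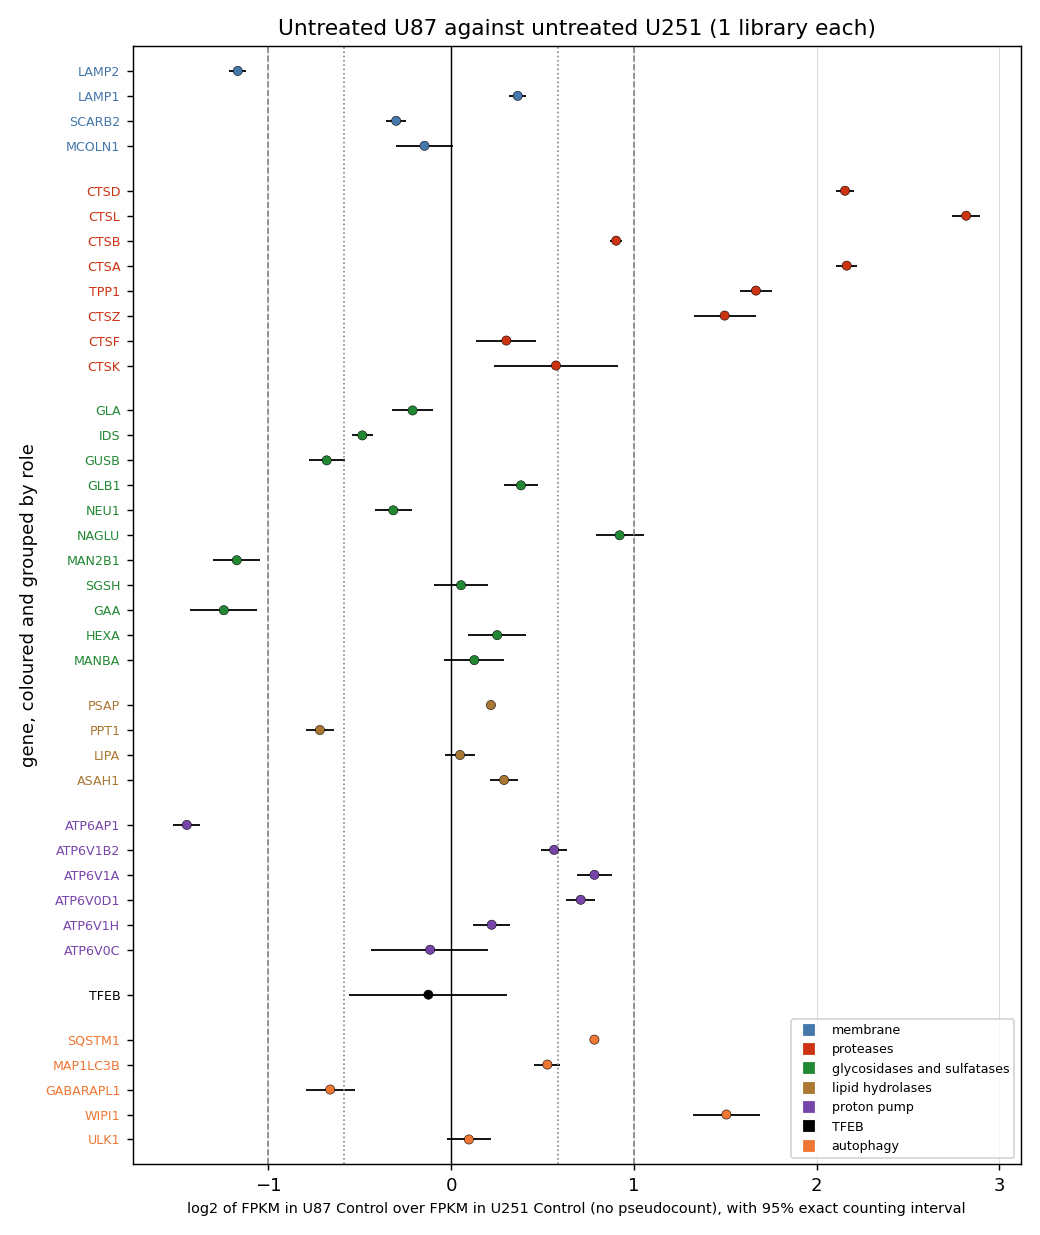
Log2 ratio of FPKM in U87 Control to FPKM in U251 Control, without the added 0.1, for each of the 39 genes coloured by role, with bars for the 95% exact counting interval. The 8 proteases all lie right of no change, from 0.30 for CTSF to 2.81 for CTSL, and ATP6AP1 lies furthest left at -1.44.

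Another 133 genes of the lysosome and autophagy were listed, of which 125 passed the filter. In U251, 21 of them fell (16.8%, beside 15.6% of all genes) and 9 rose, which is below the 11.3% of all genes that did. In U87, 6 fell (4.80%, beside 4.49%) and none rose (beside 4.56%). Their median was 0.00 in U251 and -0.06 in U87. The lists differed, with most of the fallen genes among the hydrolases.

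Of 23 other hydrolases and their activators, 13 fell in U251 (56.5%, where 15.6% of all genes did) and 1 rose (4.35%, beside 11.3%), with a median of -0.81, and 4 fell in U87 (17.4%, beside 4.49%), with -0.23. FUCA1, the fucosidase, had an FPKM of 24.9 in Control and 4.80 in Bru for U251, and 8.25 in Control and 4.10 in Bru for U87, and its ratio of -2.35 in U251 (interval -2.61 to -2.15) was more negative than that of any of the 38 genes. In U87 it was -0.99, and FUCA1 fell there too. GRN, which codes for progranulin, fell in U251 (-0.93). CTSO, SMPD1 and PLA2G15 fell in both lines, with ratios in U251 and U87 of -0.83 and -0.92 for the protease CTSO, -0.87 and -0.63 for the acid sphingomyelinase SMPD1, and -0.83 and -0.68 for the phospholipase PLA2G15. The 1 gene past the mark upwards, CTSS, had only 4 and 15 reads in U251.

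Of 14 other membrane proteins, 4 fell in U251 (28.6%, beside 15.6% of all genes) and none in U87 (beside 4.49%), with a median of -0.22 in each line. They were LAPTM4B (-0.96), LAPTM4A (-0.76), the acetyltransferase HGSNAT (-0.89) and the sialic acid carrier SLC17A5 (-0.85). In U87 the ratios were -0.49, -0.23, -0.39 and -0.45, and the ion channel TPCN2 had -0.41. CD63, a tetraspanin of the lysosomal membrane and the most abundant gene of this list, had an FPKM of 233 in Control and 230 in Bru for U251, and 457 in Control and 464 in Bru for U87, with ratios of -0.02 in U251 and 0.02 in U87. The cholesterol carrier NPC1 had 0.46 and -0.09, and TMEM192 had 0.52 and 0.17. None of these 3 fell in U251, and they were chosen after their values were seen. Of 9 genes that sort enzymes by mannose 6-phosphate or sortilin, SORT1 alone fell, in both lines (-0.73 and -0.66). That is 11.1% in each line, beside 15.6% of all genes in U251 and 4.49% in U87, and it rests on 1 gene. In U251 the phosphotransferase subunit GNPTAB had -0.58, the receptor M6PR -0.31 and the adaptor GGA2 -0.19, short of the mark. In U87 the receptor IGF2R had 0.17, and NAGPA, which uncovers the mannose 6-phosphate tag, had -0.16.

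Over 4 lists with 50 further autophagy genes, 5 rose in U251 (10%, near the 11.3% of all genes that rose) and 1 fell, where 15.6% of all genes fell. In U87 none rose and 1 fell, where 4.56% and 4.49% of all genes did. Of 16 initiation and nucleation genes, 3 rose in U251 (18.8%) and none fell. They were UVRAG (0.85) and ATG14 (0.78), partners of the lipid kinase that marks the growing membrane, and ATG101 (0.60) of the ULK1 complex. ATG9A, which supplies lipid, had -0.54. In U87 the same UVRAG and ATG14 had 0.29 and 0.30, while BECN1 had 0.21 and WIPI2 -0.20. Of 11 fusion genes, VPS11 (0.96) and VPS33A (0.64) of the HOPS tethering complex rose in U251 and none passed the mark in U87, where VPS11 had 0.34 and the SNARE protein SNAP29 -0.26.

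Of 14 genes of the ATG8 family and its conjugation, MAP1LC3A fell in U251 (-0.95) and GABARAP in U87 (-0.87, on 51 and 25 reads). That is 7.14% in each line, beside 15.6% of all genes in U251 and 4.49% in U87. The ubiquitin-like ATG12 (0.43), the conjugating enzyme ATG3 (0.40) and the protease ATG4D (0.37) had positive ratios in U251, short of the mark. None of the 9 other autophagy receptors passed it in either line, where in U87 4.56% of all genes rose and 4.49% fell. Of these, NBR1, a receptor built like p62, had 0.38 in U251 and 0.09 in U87, TAX1BP1 had 0.28 and 0.11, and WDFY3 had -0.51 and -0.06. The mitophagy receptor BNIP3 had 0.33 in U87. SQSTM1 was the only one of the 10 listed receptors past the mark in U251, where 11.3% of all genes rose and 15.6% fell. A rise of 1 in 10 is near that background.

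Of 17 genes for relatives of TFEB and for the mTORC1 platform on the lysosome, 3 rose in U251 (17.6%, beside 11.3% of all genes) and none passed the mark in U87, where the counting interval lay above no change for 5 and below it for 2. FLCN (0.91) and FNIP1 (0.74) form the complex that acts on the Rag GTPases, and RRAGC (0.85) is one of these GTPases. RRAGD, its close relative, had 0.53. In U87 the ratios of FLCN, FNIP1, RRAGC and RRAGD were 0.15, -0.01, -0.09 and -0.08. MITF, a relative of TFEB, had 0.14 in U251 and -0.30 in U87. In U87 the lysosomal scaffold LAMTOR1 had 0.21 and the arginine-sensing SLC38A9 had 0.23.

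Lysosomal enzymes fold in the endoplasmic reticulum before they are sorted, and p62 is a known NRF2 target, so 2 lists of such genes were set beside the 39. Of 16 chaperones of the endoplasmic reticulum, 10 fell in U251 (62.5%, beside 15.6% of all genes) and 1 in U87 (6.25%, beside 4.49%), with medians of -0.74 and -0.37, so genes outside the lysosome had lower levels as well. PDIA4 had the most negative ratios, -1.89 in U251 and -0.68 in U87, and P4HB had -1.29 and -0.58. Of 9 NRF2 targets, 2 rose in each line (22.2%, beside 11.3% and 4.56% of all genes), with medians of 0.26 and 0.37. HMOX1, the heme oxygenase, had an FPKM of 14.0 in Control and 163 in Bru for U251, and 57.4 in Control and 106 in Bru for U87, which is a ratio of 3.54 in U251 and 0.89 in U87. OSGIN1 also rose in U251 (1.13) and NQO1 in U87 (0.59). SQSTM1 thus had a larger ratio in U251 than in U87, as HMOX1 did, whereas NQO1 had 0.26 in U251.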

How the data were processed

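RNA of the 4 cultures was turned into libraries (NEB Next Ultra) and read from both ends. The authors deposited FPKM per gene with the gene lengths used. The submitters' processing notes name HISAT2 2.0.5, StringTie 1.3.3b, featureCounts 1.5.0-p3, DESeq2 1.16.1 and the build hg18 without their roles, whereas the coordinates of all 58735 genes equal those of GENCODE release 29 (GRCh38). Whether reads were counted by strand is not given in the sources used here.

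FPKM times length was a whole multiple of 1 step for 100% of the values in each library (tolerance 0.0001 reads). This gave the reads per gene and the library size used in the FPKM. That size was 20974002, 18533374, 18070193 and 17406238 for U251 Control, U251 Bru, U87 Control and U87 Bru. Reads on genes were 21453561, 17847910, 18260975 and 17083896 in the same order. They exceeded that size in both Control libraries and stayed below it in both Bru libraries, so it is not a plain count of these reads. Log2 ratios were taken on FPKM + 0.1, and genes averaging under 1 FPKM were left out. Intervals of a difference between lines are exact conditional intervals of an odds ratio of reads, without the added 0.1. The 1.5-fold mark equals a log2 ratio of 0.58, and 2-fold is the fold cutoff of the study. Reads are not independent molecules where PCR copies exist, so intervals and floors cover counting error only. Bru was tested against Control over both lines with limma 3.58.1 (R 4.3.3) on log2(FPKM + 0.1), with the line as block, a mean-variance trend and Benjamini-Hochberg adjustment over all genes tested, and this test was added after the data had been seen. Python 3.11.15, scipy 1.17.1 and pandas 2.3.3 were used, and the scripts were tested on simulated data. The 39 genes and the other lists were chosen with earlier results of these data known. All 39 genes are named, and of each other list at most the 4 genes with the largest ratio, in either direction, in each line, besides those that passed a mark. A gene that this rule selects is not reported here.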

Additional observations from a re-analysis of the deposited data

Results flagged for a closer look

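For 3 genes the ratio of Bru to Control had opposite signs in the lines with both counting intervals away from no change. No replicate exists, so the difference between the lines was not tested. For IDS the U251 ratio was 0.16 and the U87 ratio -0.13 on the log2 scale, a difference of 0.29 (U251 minus U87). With scaling to the 75th percentile the U87 ratio of IDS was 0.02 and the opposite signs were lost. TPP1 had -0.15 in U251 and 0.19 in U87, a difference of -0.34. TFEB had 0.47 in U251 and -0.51 in U87, a difference of 0.99, on 53 to 133 reads per library.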

How the results depend on the processing

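Ratios were recomputed with a pseudocount of 1 or 0.01, with centring on the median of all genes, with scaling to TPM, to the 75th percentile or without mitochondrially encoded genes, with no filter or one at 5 FPKM, and on protein-coding genes only. Counts over both lines and the lists of other genes were put through them after the data had been seen. No ratio past the 1.5-fold mark changed its sign. In U251, 11 to 15 genes fell past 1.5-fold and the median of the genes ran from -0.37 to -0.29. Scaling to the reads on genes was not tried. It would make the ratios of Bru to Control less negative in both lines, for all genes alike. Counts of genes near the mark therefore depend on it, and the range of 11 to 15 does not cover it. In U251, MAN2B1 (-0.59), ATP6V0C (-0.61), PSAP (-0.61) and LAMP1 (-0.62) would then stay short of the mark. With a pseudocount of 1, 1 gene instead of 2 fell past 2-fold in U251. With scaling to the 75th percentile, 1 gene (SQSTM1) rose past 1.5-fold in U87, the median in U87 was -0.020, and 19 genes instead of 24 had negative ratios in both lines (where 22.9% of all genes did). With the filter at 5 FPKM, 1 gene fell past 1.5-fold in U87, since ATP6V0C is below that level. Of the recomputed counts and medians of the 39 genes, 149 stayed within 1.5 times the count or within the counting error of the median. Among them is the count of 19 genes with negative ratios in both lines. The 4 that did not were the 2-fold count in U251, the rise and the median in U87 with scaling to the 75th percentile, and the fall in U87 at 5 FPKM. The limma test over both lines pairs Control and Bru by line, with the line as the replicate block. With and without that block, 0 of the 38 genes passed an adjusted p of 0.05. With the block and the filter at 5 FPKM, 1 gene (ATP6AP1, adjusted p = 0.03) fell and none rose, among 98 genes lower and 34 higher of 7578, and ATP6AP1 did not pass at 1 FPKM, with scaling to the 75th percentile or with a pseudocount of 1. With a pseudocount of 1, 7 of all genes tested were higher and 13 lower. Leaving out a library leaves no residual degree of freedom, so no such fit was made. Counting error is small for most of the genes and the spread between cultures is unknown, which limits every comparison.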
